A study of Rattus norvegicus with 2 samples.

Results

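The skeletal myosin heavy chains are the motor proteins of the thick filament, and 6 of their genes were followed here in single-cell RNA sequencing (scRNA-seq) of rat and rat-mouse chimera muscle: Myh1, Myh2, Myh3, Myh4, Myh7 and Myh8. The members were chosen by gene name, and they had 11 rows among the 49280 rows of the chimera library (5 rat and 6 mouse) and 5 rows among the 23373 rows of the rat library. No row of either library was named rat Myh1, so the product of that gene was not analysed here, and a rat barcode rich in Myh4 may or may not also express Myh1. The rat rows were ENSRNOG00000065740 (Myh2), ENSRNOG00000046276 (Myh3), ENSRNOG00000049695 (Myh4), ENSRNOG00000016983 (Myh7) and ENSRNOG00000068010 (Myh8), and the mouse Myh1 row was ENSMUSG00000056328. The libraries held skeletal muscle pooled from the whole body of 1 SD (Sprague-Dawley) rat and of 1 rat-mouse chimera, an SD rat that had received mouse iPSCs (induced pluripotent stem cells) as a morula. The iPSCs were reprogrammed from male Dmd mdx fibroblasts heterozygous for the Pax7-nGFP reporter, grown as picked clones, and carried a dystrophin gene edited by CRISPR/Cas9 to restore its reading frame. The host kept its own rat satellite cells and fibres, the labels give no age for either animal, and each group was 1 library with no replicate.

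A muscle fibre builds its thick filaments from the isoform, or isoforms, of heavy chain that it transcribes, and that choice largely sets how fast it contracts. Myh7 encodes the slow type 1 chain, Myh2 the fast oxidative 2A chain, Myh1 the 2X chain and Myh4 the fastest, glycolytic 2B chain. Myh3 and Myh8 encode the embryonic and the neonatal chain, which mark developing and regenerating muscle. In rodents most limb and trunk muscles are dominated by fast fibres.

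RefSeq places Myh3, Myh2, Myh1, Myh4 and Myh8 on rat chromosome 10 in that order, while Myh7 lies on chromosome 15. The 250 bases before the annotated start of 4 members, from RefSeq on build GRCr8, are shown to let the adult fast genes be set against the slow one, and to show how alike Myh1, which could not be read, is to its measured neighbours. They lie at chr10:52355489-52355738 (Myh2, plus strand), chr10:52384662-52384911 (Myh1, plus strand), chr10:52421898-52422147 (Myh4, plus strand) and chr15:32438195-32438444 (Myh7, minus strand), and each is written 5′ to 3′ on the strand of its gene. Capitals mark the longest run of letters that Myh1, Myh2 and Myh4 share, and every TATAAA.
Myh2: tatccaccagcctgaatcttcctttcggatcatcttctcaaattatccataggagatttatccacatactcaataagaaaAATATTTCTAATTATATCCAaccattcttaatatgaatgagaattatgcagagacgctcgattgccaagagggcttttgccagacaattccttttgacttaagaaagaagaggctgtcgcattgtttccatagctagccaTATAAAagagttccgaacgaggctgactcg
Myh1: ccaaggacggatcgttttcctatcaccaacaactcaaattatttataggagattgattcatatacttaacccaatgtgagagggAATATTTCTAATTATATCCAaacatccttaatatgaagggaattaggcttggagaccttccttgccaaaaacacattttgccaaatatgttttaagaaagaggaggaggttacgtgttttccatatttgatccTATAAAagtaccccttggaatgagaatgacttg
Myh4: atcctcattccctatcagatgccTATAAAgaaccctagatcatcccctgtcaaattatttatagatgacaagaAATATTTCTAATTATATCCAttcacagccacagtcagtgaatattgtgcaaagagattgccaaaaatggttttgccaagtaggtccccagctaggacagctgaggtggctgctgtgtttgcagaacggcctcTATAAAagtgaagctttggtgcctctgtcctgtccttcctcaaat
Myh7: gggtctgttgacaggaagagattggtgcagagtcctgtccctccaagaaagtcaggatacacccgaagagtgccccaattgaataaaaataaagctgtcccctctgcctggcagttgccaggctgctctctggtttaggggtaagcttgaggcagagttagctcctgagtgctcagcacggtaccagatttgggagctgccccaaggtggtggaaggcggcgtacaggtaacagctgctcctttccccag

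The shared run of 20 letters began 170, 166 and 177 bases before the start of Myh2, Myh1 and Myh4. It occurred in 5 of 33469 rat promoter windows of the same length (0.0149%, either strand), namely these 3 and a pair of windows of LOC102555216 on the other strand, and it was not found in the windows of Myh3, Myh7 or Myh8. Its presence in the windows of Myh1, Myh2 and Myh4 follows from how the run was chosen. TATAAA began 30 bases before the start of Myh2 and of Myh3, 33 before Myh1 and 45 and 227 before Myh4, whereas a TATAAA that began 20 to 40 bases before the start was found in 1.37% of all windows. The window of Myh7 held no TATAAA on either strand and 3 copies of CANNTG, a sequence that was present in 65.5% of all windows. CANNTG also had 2 copies in the window of Myh4 and 1 in that of Myh3, with none in those of Myh1, Myh2 and Myh8, so it did not set the slow gene apart from the fast ones. By global alignment the window of Myh1 was 67.8% identical to that of Myh2 and 54.6% to that of Myh4, and that of Myh4 was 47.0% identical to that of Myh7. These matches describe letters and do not show binding. The windows rest on annotated starts, which were not checked here. The windows of Myh7 and Myh8 both end in ag after letters rich in c and t. Whether the Myh7 and Myh8 windows lie before the true starts was not tested, so their contrast with the fast genes holds for these windows only.

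Because the libraries tag the 3′ end of each transcript, a UMI (unique molecular identifier) counts 1 captured molecule whatever the length of the gene, and levels are given as CPM, the UMI count of a gene scaled to 1000000 UMIs of the group. After filtering, 8816 barcodes of the SD rat and 11730 of the chimera were kept, and a barcode was called a myofibre when at least 5% of its UMIs fell on Acta1, Ckm, Mylpf, Tnnt3, Tnni2, Myl1 and Tcap, none of which is a heavy chain. This gave 2261 myofibre barcodes in the SD rat (median 3076 UMIs). In the chimera, barcodes with at most 20% of UMIs on mouse genes were called rat, those with at least 80% mouse, and the others mixed, which gave 983 rat (median 5640 UMIs), 39 mouse (3753 UMIs) and 538 mixed (3502.5 UMIs) myofibre barcodes. In the chimera the rat and mouse rows of a gene were summed unless stated otherwise. Muscle had been digested, passed through fine strainers and sorted for live cells, so these barcodes may hold fragments of fibres rather than whole ones. The libraries shared 43 barcode sequences. All intervals below are exact 95% intervals (binomial for shares, Poisson for levels) that cover counting error only, and without replicates no difference between the animals has a test.

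Rat Myh1 had no row and is missing from the shares given here. Among the chains with a row, Myh4, the 2B chain, was the main transcript in all 4 groups. It held 26908 of 27739 heavy chain UMIs in SD rat myofibre barcodes (97.0%, 96.8 to 97.2) and 97.7% of those in chimera rat barcodes. The share was 93.3% (92.5 to 94.1) in mixed and 92.3% (87.6 to 95.6) in mouse barcodes. Unlike that of the SD rat, the chimera totals include the mouse Myh1 row. It held 26 of 16729 UMIs in chimera rat, 135 of 4262 in mixed and 15 of 194 in mouse barcodes. In mouse barcodes Myh1 held every heavy chain UMI that was not on Myh4, so these shares are not directly comparable with that of the SD rat. The level of Myh4 was 3027 CPM in the SD rat and 2388 in chimera rat barcodes, against 1580 in mixed and 908 in mouse barcodes. Per 1000 UMIs on the 7 fibre genes the order was the same, with 11.9 Myh4 UMIs in the SD rat, 9.12 in chimera rat, 6.29 in mixed and 4.55 in mouse barcodes. By barcode, the SD rat ranged from 0 to 198 Myh4 UMIs with a median of 5, and chimera rat barcodes from 0 to 147 with a median of 9. Mouse barcodes ranged from 0 to 56 with a median of 2, and mixed barcodes from 0 to 98 with a median of 3. At least 1 Myh4 UMI was found in 79.0% of SD rat and 95.6% of chimera rat myofibre barcodes, but the chimera rat barcodes were deeper, and at a common depth of 1000 UMIs the expected shares were 72.7% in the SD rat and 71.2% in chimera rat barcodes. This left out 562 of 2261 SD rat and 13 of 983 chimera rat barcodes that were shallower, so the shares at this depth do not cover the shallow SD rat barcodes.

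Myh7 and Myh2 were far less abundant than Myh4 in every group, and Myh1, readable on mouse rows only, is described further on. Myh7, the slow chain, had 499 UMIs in 73 SD rat barcodes (56.1 CPM, 51.3 to 61.3) and 194 UMIs in 20 chimera rat barcodes (28.3 CPM, 24.5 to 32.6). Mixed barcodes had 39 Myh7 UMIs in 4 barcodes, and mouse barcodes had 0 of 194 heavy chain UMIs. Myh2, the 2A chain, had 259 UMIs in 116 SD rat barcodes (29.1 CPM) and 137 UMIs in 32 chimera rat barcodes (20.0 CPM). Mixed barcodes held 105 Myh2 UMIs in 12 barcodes, 64 of them in 1 barcode, and mouse barcodes held none. The developmental chains were the lowest in the SD rat, with 59 Myh3 UMIs in 27 barcodes and 14 Myh8 UMIs in 9 barcodes. The counting intervals of Myh4, Myh7 and Myh2 did not overlap in the SD rat. There, 30 of the 59 Myh3 UMIs came from 1 barcode, so no order of Myh3 and Myh8 is read, and in chimera rat barcodes their intervals overlapped (1.01 to 3.25 and 0.41 to 2.11 CPM).

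**Figure D1:**
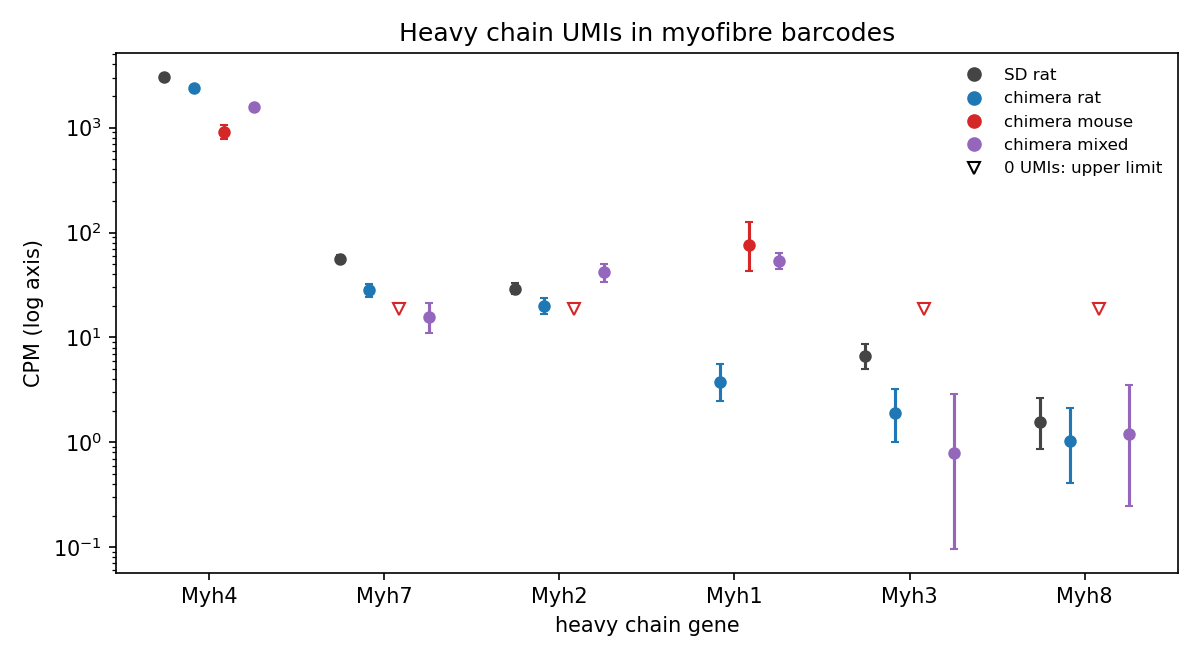
Level of each heavy chain in myofibre barcodes, as CPM on a log axis, by group (points, with exact Poisson 95% intervals; open triangles give the upper limit where 0 UMIs were counted; rat Myh1 was not analysed, so the SD rat has no Myh1 point). The Myh1 points of the chimera groups count the mouse row only, so that of chimera rat barcodes (26 UMIs, 3.80 CPM) is no measure of rat Myh1. Myh4 lies between 908 and 3027 CPM in the 4 groups, and no other chain exceeds 76.1 CPM.

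To ask which chain each barcode used, barcodes with at least 5 heavy chain UMIs were typed by the chain that held over 50% of them. Of 1231 typed SD rat barcodes, 1191 were led by Myh4 (96.8%, 95.6 to 97.7), 24 by Myh7 (1.95%, 1.25 to 2.89) and 14 by Myh2 (1.14%, 0.62 to 1.90). Of 720 typed chimera rat barcodes, 698 were led by Myh4 (96.9%, 95.4 to 98.1), 13 by Myh7 (1.81%, 0.96 to 3.07) and 8 by Myh2 (1.11%, 0.48 to 2.18). The shares of the 2 animals therefore lay within each other's counting intervals for all 3 chains. Mixed barcodes had 214 of 228 led by Myh4 (93.9%), 4 by Myh1, 3 by Myh2 and 3 by Myh7, and of the 10 typed mouse barcodes 9 were led by Myh4 and 1 by Myh1. No barcode was led by Myh3 or Myh8 (intervals 0 to 0.299% in the SD rat and 0 to 0.511% in chimera rat barcodes). The remaining 1030 SD rat and 263 chimera rat barcodes had fewer than 5 heavy chain UMIs and stayed untyped.

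Most typed barcodes held a single one of the chains with a row. Among barcodes with at least 10 heavy chain UMIs, 768 of 837 in the SD rat (91.8%) and 464 of 504 in chimera rat barcodes (92.1%) had UMIs of only 1 of the genes. In mixed barcodes it was 113 of 134 (84.3%). Rat Myh1 had no row, so a rat barcode with Myh1 and Myh4 could count as single, and these shares may be too high. Among the chains with a rat row the most frequent pair was Myh2 with Myh4, found together in 77 of 1231 typed SD rat barcodes, and in 23 of these each held at least 20% of the heavy chain UMIs. Myh4 and Myh7 met in 28 SD rat barcodes, 5 of them with at least 20% each. In chimera rat barcodes the same pairs met in 23 and 9 of 720, with 8 and 3 barcodes at 20% each. In mixed barcodes, where Myh1 could be read on the mouse row, Myh1 and Myh4 met in 32 of 228, 18 of them with 20% each, against 8 and 2 for Myh2 with Myh4. In chimera rat barcodes Myh1 and Myh4 met in 20. Myh2 and Myh7 never both reached 20% in a barcode of either animal.

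Most barcodes led by Myh7 held few UMIs of other chains, with exceptions. In the SD rat they had 4 to 131 Myh7 UMIs with a median of 6.5, and 14 of 24 had no UMI of the other chains with a row. Their Myh4 count was 0 in 14 barcodes and reached 12, beside 20 Myh7 UMIs. Myh3 had 34 UMIs in 4 of the 24, 30 of them in the barcode with 131 Myh7 UMIs. In the chimera rat the 13 barcodes had 5 to 37 Myh7 UMIs with a median of 9, and Myh4 reached 4. Conversely, the 1191 Myh4-led SD rat barcodes, with 3 to 198 Myh4 UMIs, held 29 Myh7 UMIs in 17 barcodes. The 14 Myh2-led SD rat barcodes had 3 to 26 Myh2 UMIs, a median of 2 Myh4 UMIs and no Myh7. The 8 Myh2-led chimera rat barcodes had 4 to 29 Myh2 UMIs, and 1 of them held 22 Myh4 UMIs beside 29 of Myh2.

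Slow-fibre transcripts accompanied Myh7. In the SD rat, slow skeletal troponin T (Tnnt1) reached 23498 CPM in the 24 Myh7-led barcodes against 43.6 in the Myh4-led ones, and it was found in 24 of 24 against 180 of 1191 barcodes. In the chimera rat the levels were 20922 and 3.99 CPM, with Tnnt1 in 13 of 13 and 17 of 698 barcodes. The slow ventricular-type light chain Myl2 gave 27636 against 55.2 CPM in the SD rat and 26641 against 5.54 in the chimera rat. Slow troponin I (Tnni1), slow troponin C (Tnnc1) and the light chain Myl3 were likewise found in every Myh7-led barcode of both animals. Tpm3, a tropomyosin of slow fibres, was at 13692 against 74.4 CPM in the SD rat.

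Counted over whole lists, all 3 genes for light chains and binding protein of slow fibres and all 7 slow programme genes with at least 20 UMIs were at least 2-fold higher in Myh7-led than in Myh4-led barcodes, in both animals. Over all genes tested, 12.1% in the SD rat and 12.8% in the chimera rat were higher by this measure. In the SD rat the median log2 difference was 8.09 for the former list and 7.50 for the latter. The median of all genes was -0.64, or 0.72 when a count of 0 was replaced by 3 UMIs, since many genes had no UMI in so few barcodes. The genes for light chains and binding protein of fast fibres (Myl1, Mylpf and Mybpc2) were at least 2-fold lower in 3 of 3 cases in both animals, against 45.4% of all genes in the SD rat and 53.5% in the chimera rat. Mybpc2, the fast myosin binding protein C, was at 56.0 against 957 CPM in the SD rat. Of 7 fast programme genes 5 were lower in both animals, among them Actn3, the fast α-actinin, at 149 against 2046 CPM in the SD rat and 108 against 2328 in the chimera rat. Mylpf, Myl1, Tnnt3 and Tnni2 are on these lists and also served to call myofibres, and the Myh7-led SD rat barcodes had a lower median share of the fibre genes (14.1%) than the Myh4-led ones (29.9%). The cardiac actin gene Actc1, which is also expressed in immature muscle, was higher in Myh7-led barcodes of the SD rat (831 against 179 CPM), and 15 of 24 barcodes held it, while the embryonic light chain gene Myl4 was at 9.34 against 50.7 CPM. Among the regulators of fibre type, the SD rat had 2 of 11 higher and 7 lower and the chimera rat 0 of 10 higher and 7 lower, mostly from counts under 5 in the Myh7-led barcodes. Of the myosin chaperones and assembly genes, 1 of 5 was higher and 2 were lower in both animals. The higher one was Myom1, an M-band protein, at 243 against 57.1 CPM in the SD rat, and among the lower was Myom2, the M-band protein of fast fibres, at 18.7 against 201 CPM. On the list of 6 other heavy chains, only Myh14, a non-muscle myosin heavy chain, reached 20 UMIs, in the SD rat, with 0 UMIs in the Myh7-led and 27 in the Myh4-led SD rat barcodes. Myh6, the cardiac α chain, had 4 UMIs in the 24 Myh7-led and 0 in the 1191 Myh4-led SD rat barcodes, and 3 against 0 in the chimera rat.

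Myh2-led barcodes shared part of this pattern. All 3 genes for light chains and binding protein of slow fibres were at least 2-fold higher than in Myh4-led barcodes in both animals, against 12.7% of all genes in the SD rat and 17.5% in the chimera rat. In the SD rat Myl3 was at 1403 against 74.4 CPM and was found in 11 of 14 barcodes, while Myl2 was at 1695 CPM but in 4 of 14 barcodes, 1 of which held 76 of its 122 UMIs. Myoz2, which encodes a calcineurin-binding Z-disc protein of slow and oxidative fibres, was found in 14 of 14 SD rat barcodes (1918 against 50.7 CPM) and 8 of 8 chimera rat barcodes (2850 against 23.1 CPM). In the SD rat Tnnt1 was at 41.7 against 43.6 and Tpm3 at 13.9 against 74.4 CPM. In the chimera rat, by contrast, Tnnt1 was at 395 against 3.99 CPM, from 27 UMIs in 3 of 8 barcodes, and Tpm3 was at 29.2 against 51.4. Over the slow programme, 4 of 7 genes were higher and 2 lower in the SD rat, and 5 higher and 0 lower in the chimera rat. The fast troponins were within 2-fold of their Myh4-led level, with Tnnt3 at 29500 against 39226 and Tnni2 at 25123 against 29516 CPM in the SD rat. Actn3 and Mybpc2, by contrast, were low in Myh2-led as in Myh7-led barcodes, at 139 and 97.3 CPM in the SD rat and 117 and 43.9 in the chimera rat. Of the 3 fast light chain and binding protein genes 1 was lower in the SD rat and 2 in the chimera rat, and of the 7 fast programme genes 2 and 1. Over all genes, 53.4% in the SD rat and 44.4% in the chimera rat were at least 2-fold lower in Myh2-led barcodes.

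A share that does not use the heavy chains was computed from the 11 slow and 10 fast list genes with a rat row, as the percent of their summed UMIs on the slow genes. It had a median of 0.251% in Myh4-led, 4.51% in Myh2-led and 79.4% in Myh7-led SD rat barcodes. In the chimera rat the medians were 0.119%, 13.5% and 87.4%. Slow genes held over 50% in 42 of 2261 SD rat myofibre barcodes (1.86%, 1.34 to 2.50). Of these 42, 21 were typed by a heavy chain and all 21 were led by Myh7, while the other 21 had fewer than 5 heavy chain UMIs. In the chimera rat, 16 of 983 barcodes passed 50% (1.63%, 0.93 to 2.63), 12 of them typed and all 12 led by Myh7, and in mixed barcodes 3 of 4 were typed and led by Myh7. No Myh4-led barcode passed 50%, and the highest had 42.3% in the SD rat and 6.67% in the chimera rat. The lowest Myh7-led barcodes had slow genes at 9.31% in the SD rat and 9.82% in the chimera rat. Of the fast genes, Mylpf, Myl1, Tnnt3 and Tnni2 also served to call myofibres, and none of the slow genes did. The rule may therefore admit fewer slow barcodes, so the percent of barcodes past 50% depends on it.

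**Figure D2:**
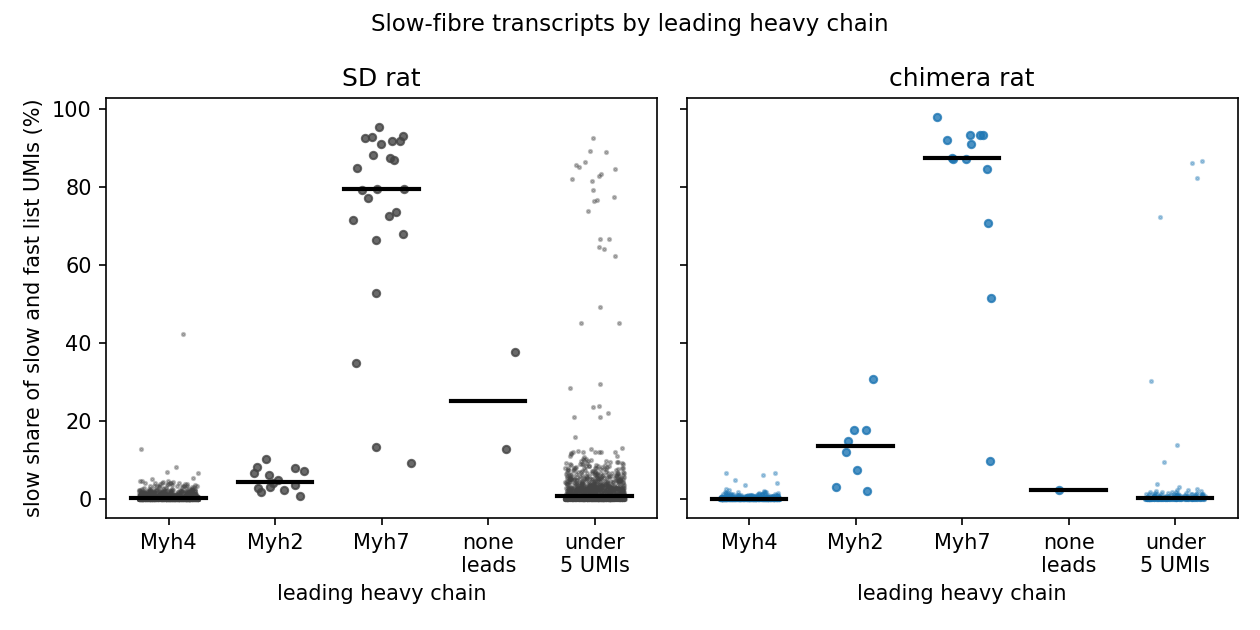
Percent of the UMIs on 11 slow and 10 fast list genes that fell on the slow genes, for each myofibre barcode of the SD rat (left) and the chimera rat (right), by leading heavy chain, with barcodes where none leads and those of under 5 heavy chain UMIs at the right (points are barcodes, bars are medians). Myh7-led barcodes have medians of 79.4% and 87.4%, Myh2-led ones 4.51% and 13.5%, and Myh4-led ones 0.251% and 0.119%.

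The genes whose levels followed each chain most closely were ranked by Pearson correlation of log2(CPM + 100) over 1699 SD rat myofibre barcodes of at least 1000 UMIs, among 1389 genes. These barcodes share 1 library and differ in depth, so r describes them and is not a test. Myh7 went with Tnni1 (r = 0.71), Tnnt1 (0.68), Tnnc1 (0.66), Myl2 (0.60) and Tpm3 (0.59), and in 970 chimera rat barcodes the same correlations were 0.85, 0.88, 0.85, 0.80 and 0.71. Myh4 went with Mybpc2 (0.65), Ttn (0.59), Actn3 (0.59), Neb (0.49) and AABR07005775.1 (0.48), of which Ttn and Neb encode the giant sarcomere proteins titin and nebulin. In the chimera rat these were 0.64, 0.55, 0.65, 0.55 and 0.48. Myh2 went with Myoz2 (0.36), Fhl1 (0.29), the fatty acid-binding protein gene Fabp3 (0.28), the myoglobin gene Mb (0.27) and Mybpc1 (0.24), with 0.47, 0.31, 0.31, 0.32 and 0.24 in the chimera rat. For Myh3 the highest value was 0.23 (Myoz2) and for Myh8 0.098 (Mgst3), in counts too sparse for a pattern.

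Myh4 also varied with the share of fibre transcripts in a barcode. In the SD rat it rose from 832 CPM in barcodes with 5 to 10% of UMIs on the 7 fibre genes to 7056 at 20 to 25%, and was 2832 at 30% or more. In chimera rat barcodes it was 548 at 5 to 10%, 4885 at 25 to 30% and 2447 at 30% or more. Barcodes at 5 to 10% made up 578 of 2261 in the SD rat (median 786.5 UMIs) but 112 of 983 in chimera rat barcodes (8248 UMIs). Markers of endothelial, fibro-adipogenic, immune, mural and erythroid cells moved the other way, from 29495 CPM at 5 to 10% to 769 at 30% or more in the SD rat, and from 24026 to 452 in chimera rat barcodes. Over all myofibre barcodes the fibro-adipogenic markers alone stood at 6632 CPM in the SD rat and 4598 in chimera rat barcodes. Their part in the levels of the heavy chains was not tested, and in the band of 30% or more, where the other markers were lowest, the 2 animals had 2832 and 2447 CPM of Myh4.

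**Figure D3:**
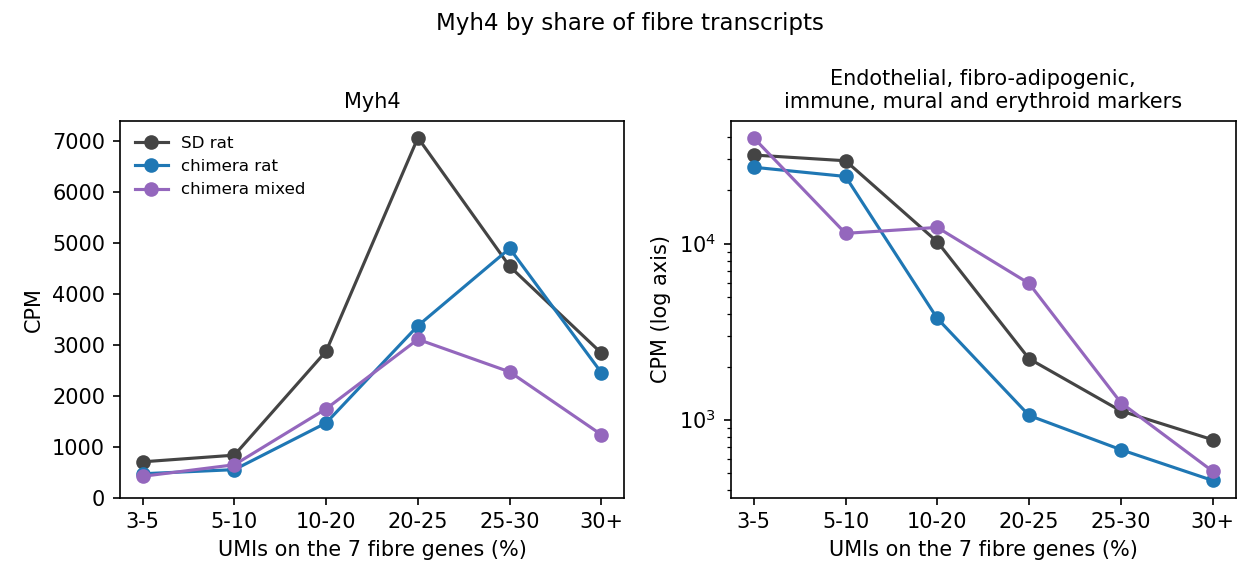
Myh4 (left) and summed markers of endothelial, fibro-adipogenic, immune, mural and erythroid cells (right, log axis), as CPM, in bands of the percent of UMIs on the 7 fibre genes, for SD rat, chimera rat and mixed barcodes (the band of 3 to 5% lies below the myofibre limit). Myh4 peaks at 20 to 25% in the SD rat (7056 CPM) and at 25 to 30% in chimera rat barcodes (4885), while the other markers fall.

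Set against the SD rat on rat rows alone, 4 of the 5 readable heavy chains differed by less than 2-fold in chimera rat myofibre barcodes, a call that depended on the settings for Myh7 and Myh3. Levels here are scaled to the UMIs on rat rows, which leaves mouse UMIs out of the chimera total. The log2 ratio, with 1 CPM added to each side, was -0.22 for Myh4 (2600 against 3027 CPM, interval -0.25 to -0.19), -0.43 for Myh2 (-0.76 to -0.14), -0.86 for Myh7 (-1.13 to -0.64) and -0.39 for Myh8 (-2.37 to 0.77). The intervals are those of the ratio without the added 1 CPM, so at low counts, as for Myh8 and Myh3, they are not centred on the values given. The median of all 10897 genes tested was -0.14, with quartiles of -0.44 and 0.14, so Myh4, Myh2 and Myh8 lay within this range and Myh7 and Myh3 below it. Myh3 was past 2-fold lower (-1.38, with 12 against 59 UMIs), where 4.27% of all genes were past 2-fold lower and 2.64% higher. Its interval of -2.81 to -0.87 also held values within 2-fold. A single SD rat barcode held 30 of the 59 Myh3 and 131 of the 499 Myh7 UMIs. Without it, an exclusion chosen after its values were seen, the ratios were -0.54 for Myh3 and -0.43 for Myh7, and no heavy chain was past 2-fold. With species limits of 10% and 90% Myh7 was past 2-fold lower (-1.11), and Myh3 was not with myofibres from 10% fibre genes (-0.65) or a pseudocount of 10 (-0.48). Chimera reads could be counted on mouse rows and SD rat reads could not, and summing the rat and mouse rows gave -0.34 for Myh4 and -0.96 for Myh7.

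Of the genes that act with the heavy chains, Mybpc2 and Actc1 were past 2-fold on rat rows. Over all genes tested only 2.64% were past 2-fold higher and 4.27% lower. Short lists with none past 2-fold are therefore not set apart from all genes. None of the 8 slow programme genes and none of the 7 fast programme genes tested was past 2-fold, with medians of -0.49 and 0.09 on the log2 scale. Slow light chains and binding protein had a median of -0.41 and none past 2-fold, and of the fast ones Mybpc2 was lower (355 against 764 CPM, log2 ratio -1.10) while Myl1 was at 0.52 and Mylpf at 0.18. Of the pair that marks immature muscle, Actc1 was lower (-1.13) and Myl4 was at -0.41. With mouse rows added, Actc1 was at -0.74, as 30.6% of its UMIs in chimera rat barcodes fell on the mouse row, and Mybpc2 stayed at -1.08. None of 5 chaperone and assembly genes, 2 other heavy chains (Myh7b and the non-muscle Myh14) or 11 regulators was past 2-fold, and their medians were -0.40, -0.79 and -0.56. With mouse rows added the regulator Maf was at 1.25 instead of 0.17, and 57.5% of its UMIs in chimera rat barcodes were on the mouse row.

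In the chimera, mouse myofibre barcodes had a lower mouse share for Myh4 and for the fibre genes than for the other UMIs. In chimera rat myofibre barcodes 217 of 16352 Myh4 UMIs were on the mouse row (1.33%, 1.16 to 1.51), below the 11.7% of all UMIs outside the 7 fibre genes that were on mouse rows there, or 6.98% without the ribosomal RNA row Rn18s-rs5. The 7 fibre genes had 2.95% there, from 1.34% (Tcap) to 6.59% (Tnnt3). Endothelial barcodes of rat had 17 of 375 Myh4 UMIs on the mouse row (4.53%, 2.66 to 7.16). Mouse myofibre barcodes were named by all their UMIs, and 8 of the 39 had under 20% and 8 more 20 to 80% of their fibre-gene UMIs on mouse rows, so the name did not match the fibre transcripts of the first 8. In the mouse myofibre barcodes 112 of 179 Myh4 UMIs were mouse (62.6%, 55.0 to 69.7), against 88.1% of the UMIs outside the fibre genes. The 7 fibre genes had 76.5%, from 68.4% (Ckm) to 83.2% (Myl1). The naming rule of at least 80% mouse UMIs itself keeps the 88.1% high. The 67 rat Myh4 UMIs came from 14 of 39 barcodes, 23 of them from 1 barcode. In mouse endothelial barcodes 49 of 436 Myh4 UMIs were mouse (11.2%, 8.43 to 14.6), so that Myh4 there was mostly rat although 95.5% of the UMIs outside the fibre genes were mouse. Of the UMIs on the 7 fibre genes there, 13.3% were mouse. All 6 Myh4 UMIs of mouse myoblasts and all 13 of mouse satellite cells were rat.

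Mixed myofibre barcodes held Myh4 of both species. Of 3978 Myh4 UMIs 1163 were mouse (29.2%, 27.8 to 30.7), whereas 51.0% of the UMIs outside the fibre genes and 35.8% of those on the fibre genes were mouse. Of 538 barcodes, 199 had UMIs of both, 181 only of rat, 42 only of mouse and 116 of neither. At least 3 UMIs of each species were found in 86 mixed barcodes, against 21 of 983 rat and 2 of 39 mouse barcodes. The mouse share of Myh4 was 14.2% in the 129 barcodes with 20 to 30% of all UMIs on mouse rows, 18.9% at 30 to 40%, 42.2% at 40 to 60% and 51.4% in the 183 barcodes at 60 to 80%. Among 209 mixed barcodes with at least 5 Myh4 UMIs, 88 had under 20% and 13 over 80% of them on the mouse row, while 108 lay in between. Predicted doublets had been left out, and with them kept the mouse share of Myh4 was 26.0%. Whether the remaining mixed barcodes hold 1 cell, several cells or free RNA was not tested.

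**Figure D4:**
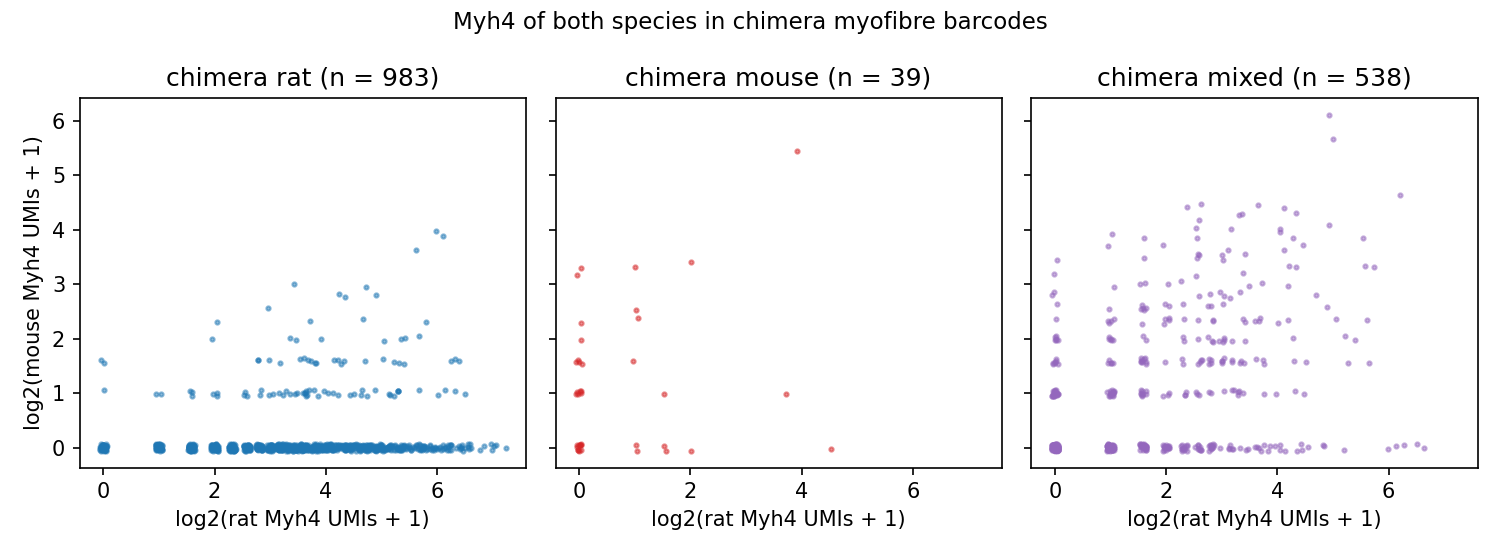
Rat (horizontal) against mouse (vertical) Myh4 UMIs in each chimera myofibre barcode, as log2(UMIs + 1) with a small random shift, for rat, mouse and mixed barcodes. In rat barcodes the mouse row carries 1.33% of Myh4 UMIs, and in mixed barcodes 199 of 538 have UMIs of both species.

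On mouse rows alone, where Myh1 has a row, Myh1 held the second largest share. Without a rat row, rat Myh1 reads could be counted on the mouse row, so these UMIs cannot be assigned to a species. Mixed barcodes had 1334 heavy chain UMIs on mouse rows, 87.2% on Myh4 (85.3 to 88.9), 10.1% on Myh1 (8.55 to 11.9), 2.47% on Myh2 and 0.150% on Myh7. Mouse barcodes had 127, of which 88.2% were Myh4 (81.3 to 93.2) and 11.8% Myh1 (6.76 to 18.7). The 135 Myh1 UMIs of mixed barcodes came from 52 barcodes with at most 11 in 1 barcode, and 9 barcodes had at least 5. The 15 Myh1 UMIs of mouse barcodes came from 5 barcodes, 2 of which had at least 5. Of the 52 mixed barcodes with Myh1, 44 also had Myh4 of either species, 17 had mouse Myh4 and 6 had Myh2. On rat rows of the same mixed barcodes 96.1% of 2928 UMIs were Myh4, 2.46% Myh2 and 1.26% Myh7, with no row for Myh1. In chimera rat barcodes the mouse Myh1 row drew 26 UMIs in 21 barcodes, beside 16135 rat Myh4 UMIs, and only 4 of these 21 had mouse Myh4. The mouse row of Pvalb, a gene that also lacks a rat row, drew 2411 UMIs in the chimera rat myofibre barcodes. Mouse Myh2 in mixed barcodes came from 5 barcodes, with 15 of 33 UMIs in 1.

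Embryonic Myh3 and neonatal Myh8 were nearly absent from myofibre barcodes. Only 1 SD rat barcode had 5 or more Myh3 UMIs. It held 30, together with 131 of Myh7, 181 of Tnnt1 and 74 of Myl2, and no UMI of Myog, Mymk or Mymx. No myofibre barcode had more than 3 Myh8 UMIs. Elsewhere a single SD rat barcode of no named class had 9 Myh8 UMIs beside 40 of Myh4.

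Myoblasts, defined by at least 3 UMIs on 7 myogenic genes with at least 2 on Myog, Mymk and Mymx and under 5% on the fibre genes, numbered 57 in the SD rat, 134 in chimera rat, 12 in mouse and 10 in mixed barcodes. Barcodes that met this rule except for having under 2 UMIs on Myog, Mymk and Mymx are called satellite cells here. They may include other progenitors beside the muscle stem cells. Pax7 was found in 61.2% and Myod1 in 40.1% of them in the SD rat, and in 70.1% and 36.4% in the chimera rat. Myog, the myogenin gene of differentiating myoblasts and part of this rule, was found in all myoblasts. Actc1 was at 1366 and 1759 CPM in SD rat and chimera rat myoblasts against 16.3 and 8.88 in satellite cells. Myh3 was found in 0 of 57 SD rat myoblasts (interval 0 to 6.27% of cells with a UMI), in 1 of 134 chimera rat myoblasts (1 UMI) and in 2 of 12 mouse myoblasts (3 UMIs). Myh8 was found in 1 of 57 and in 5 of 134 (3.73%, 1.22 to 8.49), the latter with 19 UMIs of which 14 came from 1 cell. That cell had 24 Myog, 11 Mymk, 13 Mymx and 71 Actc1 UMIs, 1 of Myh4 and none of Myh3. The 3319 fibro-adipogenic barcodes of chimera rat held 1 Myh8 UMI, at a similar median depth (11593 against 12511 UMIs).

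Myh4 was found in myoblasts and satellite cells, and also in other cell types. It was found in 26.3% of SD rat myoblasts (15 of 57, 15.5 to 39.7), 35.8% of chimera rat myoblasts (27.7 to 44.6), 43.4% of 242 SD rat satellite cells and 28.7% of 261 chimera rat satellite cells. Endothelial and fibro-adipogenic barcodes, which should lack it, had it in 36.1% and 37.8% of SD rat and 29.1% and 25.7% of chimera rat barcodes, and where the Myh4 UMIs of myoblasts and satellite cells came from was not tested. Single barcodes held many of them, 10 of 35 UMIs in SD rat and 24 of 103 in chimera rat myoblasts. Median depths were 12519 and 12511 UMIs for the myoblasts and 7554 and 8243 for the satellite cells, against 3340 to 11593 for the other types. At 1000 UMIs a barcode the expected shares were 3.20% and 4.45% in myoblasts and 10.3% and 4.94% in satellite cells of SD rat and chimera rat, against 13.9% and 9.64% in endothelial and 7.65% and 3.74% in fibro-adipogenic barcodes. In CPM, SD rat myoblasts were lower (41.1, 28.6 to 57.2) and satellite cells higher (197, 180 to 216) than endothelial (125) and fibro-adipogenic (78.9) barcodes. Chimera rat myoblasts (54.5) and satellite cells (48.3) lay between endothelial (83.9) and fibro-adipogenic (37.7) barcodes. In SD rat satellite cells 160 of 460 Myh4 UMIs came from 1 barcode. Myh7 was found in 3 of 57 SD rat and 1 of 134 chimera rat myoblasts, with 1 UMI each.

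Within the myofibre class, barcodes with at least 2 UMIs on Myog, Mymk and Mymx also held mainly Myh4 among the chains with a row. The 44 such SD rat barcodes had 798 Myh4 UMIs (2394 CPM), 21 of Myh7, 2 of Myh2 and none of Myh3 or Myh8. The 28 of chimera rat had 464 Myh4 UMIs (1577 CPM), 68 of Myh7 in 2 barcodes, 1 of Myh3 and none of Myh8. The other 2217 SD rat and 955 chimera rat myofibre barcodes had 3052 and 2424 CPM of Myh4.

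**Figure D5:**
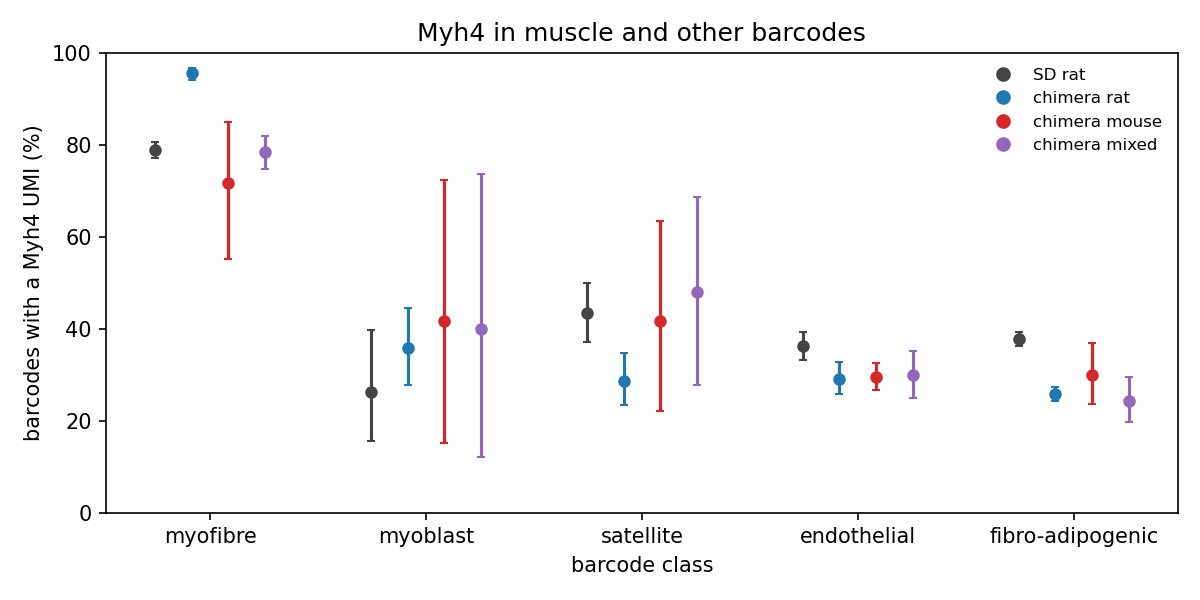
Percent of barcodes with at least 1 Myh4 UMI, by class and group (points, with exact binomial 95% intervals), at each barcode's own depth. The points of myofibre barcodes lie between 71.8% and 95.6%, and myoblasts and satellite cells between 26.3% and 48.0%, beside 24.4% to 37.8% in endothelial and fibro-adipogenic barcodes.

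Several limits touch these values. The heavy chain genes are close paralogs, and reads that matched more than 1 of them or both species equally well would not have been counted, so the shares between chains and between species are uncertain to an unknown degree. Of 38 SD rat barcodes with at least 5 Myh7 UMIs, 10 were removed by the filters and 4 fell in other classes, and for Myh4 the numbers were 135 and 165 of 1488.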

How the data were processed

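Skeletal muscle of 1 SD rat and 1 rat-mouse chimera was profiled with a droplet kit for the 3′ end of transcripts. The deposited matrices held unnormalized UMI counts, which the authors obtained by aligning to mRatBN7.2 alone (SD rat) or together with GRCm39 and EGFP (chimera); per the file headers and labels, Cell Ranger 7.1.0 was used. The libraries held 70957559 UMIs in 10117 barcodes (SD rat) and 118872850 in 13299 (chimera). Barcodes were kept with at least 500 UMIs, 200 genes and at most 20% mitochondrial UMIs. Doublets predicted by Scrublet in scanpy 1.11.5 (expected rate 8%) were left out, 164 of the SD rat (1.83%) and 444 of the chimera (3.65%).

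The genes, lists and classes were chosen with earlier results of these data known. The 6 heavy chains and all genes of the fixed lists (light chains and binding proteins, fast and slow programmes, chaperones, other heavy chains, regulators) were counted, and for likeness the 5 most correlated genes were named. Rat Myh16, Pvalb and Atp2a1 had no row of that name and were not used. The share of slow against fast genes was added after the data had been seen. With 1 library a group no test was run, a gene was called when past 2-fold, and genes needed 20 UMIs over both groups. Intervals cover counting error only. The scripts were tested on simulated data. Python 3.11.15, numpy 2.4.6, scipy 1.17.1 and pandas 2.3.3 were used. Alternatives are listed in the closing section.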

Additional observations from a re-analysis of the deposited data

How the results depend on the processing

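Each of 42 results was recomputed under the alternatives that apply to it, in 399 further values over 21 settings. Only the log2 ratios of the heavy chains could change sign, and none did. Of the values that answer a comparison, 129 stayed within their counting interval or, for counts of genes, within 1.5 times. They include SD rat shares that the species settings cannot alter. A further 37 values of this kind moved more, as did 15 values of the less abundant chains. The cause of these was not tested. With at least 10 heavy chain UMIs, 98.3% of typed SD rat and 100% of mouse barcodes were led by Myh4, and with species limits of 10% and 90% it led 100% of mouse barcodes. These rest on 5 typed mouse barcodes and on 6 mouse myofibre barcodes, and other settings gave down to 75% (rows of the barcode's own species only). The share of heavy chain UMIs on Myh4 in the SD rat was 97.8% for myofibres from 10% fibre genes and 97.6% without the barcode with the most Myh3. With doublets kept it was 97.5% in chimera rat and 94.1% in mixed barcodes. With the 10% and 90% limits it was 95.8% in mixed and 83.8% in mouse barcodes, and without Rn18s-rs5 91.9% in mixed barcodes. The mouse share of Myh4 in mixed barcodes was 31.2% when fast-fibre genes were left out of the fibre rule, 26.0% with doublets kept, 13.9% with the 10% and 90% limits and 37.0% without Rn18s-rs5. In mouse barcodes it was 75.4% from 10% fibre genes, 75.4% without fast-fibre genes and 50% without Rn18s-rs5, and in chimera rat barcodes 0.373% with the 10% and 90% limits and 1.80% without Rn18s-rs5. The log2 ratio of Myh4 was -0.079 with the median of all genes set to 0, -0.30 with doublets kept, -0.34 with both rows summed, -0.34 with the 10% and 90% limits and -0.18 without Rn18s-rs5. The ratio of Myh7 ranged from -1.11 to -0.41 and that of Myh3 from -1.46 to -0.48. The 288 genes past 2-fold higher became 127 with at least 100 UMIs, 136 from 10% fibre genes, 98 without fast-fibre genes and 48 with a pseudocount of 10. The 465 past 2-fold lower became 252 with at least 100 UMIs, 295 with doublets kept, 71 with that pseudocount and 1242 with the 10% and 90% limits. At 1000 UMIs, Myh4 was found in 3.20% of SD rat and 4.45% of chimera rat myoblasts and in 10.3% and 4.94% of satellite cells, and in 34.7% of chimera rat satellite cells with at least 5 myogenic UMIs. The exclusion of 1 barcode was chosen after seeing the data. No paired analysis was possible because each group was 1 library.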
